A study of Mus musculus with 8 samples.

Results

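The genes described here are those whose reads came mainly from IPO13 knockout cells. They were chosen on the deposited CPM values, the read counts scaled to the total counted reads of each library. A gene was kept when the mean of the 4 knockout libraries was 0.3 CPM or more and all 4 knockout libraries lay above all 4 wild-type libraries. The rule also required that the knockout mean plus 0.02 CPM be at least 4 times the wild-type mean plus 0.02 CPM, and this quotient is called the KO/WT ratio below. Of 23420 gene symbols, 90 met the rule, and 19424 of the symbols had at least 1 count in any library. All differences between knockout and wild-type levels of the 90 genes are therefore a description of what was selected, and no test is given for them. The response to H2O2, the genes' position, their type and their promoter sequence were not used in the choice.

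The study examined mouse embryonic stem cells (mESCs) from blastocysts of a 129 x C57BL/6 background, with the Importin-13 gene intact (IPO13+/+, WT) or disrupted (IPO13-/-, KO). Importin-13 is a carrier of the importin beta family that moves proteins both into and out of the nucleus. Cells of all groups grew without feeder cells in serum medium with LIF, a cytokine that keeps mESCs undifferentiated, and RNA was sequenced from untreated cells or after 125 µM H2O2 for 1 h and 2 h of recovery in clean medium. Each of the 4 groups held 2 libraries, WT untreated, WT H2O2, KO untreated and KO H2O2, and the sources used here do not say how many lines stood for a genotype or whether the replicates were separate cultures, so that the absence of IPO13 and other differences between the lines cannot be told apart.

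Between 60397877 and 73789079 reads were counted per library, and 3 counts, taken as the smallest amount told from 0, equalled 0.0407 to 0.0497 CPM, a limit that covers counting error only. Counts of Ipo13 itself were 4716 and 4786 (WT untreated), 4928 and 4791 (WT H2O2), 1965 and 1555 (KO untreated) and 1610 and 1604 (KO H2O2). Its level was 69.0 ± 2.51 CPM in WT and 25.8 ± 0.670 CPM in KO libraries (SD, n = 4), a log2 fold change of -1.46 ± 0.03 (SE) at an FDR of 1.3e-22 in edgeR's quasi-likelihood test. The counts are summed over the whole gene, so the KO reads cannot be assigned to parts of the transcript inside or outside the disruption. The 20 naive pluripotency genes, such as Pou5f1, Nanog and Zfp42, were fixed as a check of the labelled cell type. They summed to between 8985 and 9391 CPM in WT and between 8279 and 8609 CPM in KO libraries, so every KO sum was lower. Abundant genes weigh most in this sum. Dppa5a stood at 1963 CPM in WT and 1406 CPM in KO cells, and Tfcp2l1 at 1006 and 791 CPM. Pou5f1 was at 1432 and 1411 CPM, and Nanog was higher in KO cells, at 461 and 499 CPM. At an FDR below 0.05 and at least 2-fold edgeR called none of the 20 between the genotypes. At an unadjusted p below 0.05 without a fold limit 6 of them were higher and 9 lower in KO cells, and limma-voom and DESeq2 called none either. The Y-linked genes Eif2s3y, Kdm5d and Uty were at 0 counts in every library, and Ddx3y had 1 count in the first treated KO library and 0 in the others. Xist, the RNA that silences an X chromosome in female cells, had between 10.5 and 16.4 CPM in WT and between 5.13 and 6.71 CPM in KO libraries.

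Many genes of the germline are kept silent in somatic cells and in most embryonic cells by DNA methylation of their promoters and by repressor complexes that mark chromatin. A large share of such genes, among them the Xlr, Mage and Rhox families, lies in multicopy clusters on the X chromosome, and several are known from tumours as cancer-testis antigens because they are read out of place there. In mESCs some of these genes are low or variable, and the level depends on culture and on methylation.

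Most of the 90 genes were low in WT cells, where 79 had a mean under 1 CPM, while others such as Hunk, Usp26, Scml2 and Dgat2 were read at several CPM. Their summed level lay between 47.6 and 52.8 CPM in the 4 WT libraries and between 455 and 507 CPM in the 4 KO libraries. The KO mean of a gene ranged from 0.311 to 50.4 CPM with a median of 1.47 CPM, and the WT mean from 0.0035 to 6.45 CPM with a median of 0.136 CPM. KO/WT ratios ran from 4.01 to 57.2 with a median of 8.0. The ratio was 10 or more for 38 genes and 20 or more for 15. Every one of the 90 had at least 10 counts in each KO library, but 39 had as many in each WT library, so that for most of them the WT level rests on few reads. None was without any WT count, and 4 had at most 3 counts over all WT libraries. For these 4 the ratio of the rates is given with a 95% interval that covers counting error only. It was 111 for Strc (37.6 to 541; 311 KO against 3 WT counts) and 150 for Magea2 (26.5 to 5962; 140 against 1). It was 112 for Magea6 (19.7 to 4482; 105 against 1) and 51.9 for Prame (14.0 to 435; 97 against 2). The ratio limit was met by 85 of the genes with the untreated libraries alone and by 85 with the treated libraries alone.

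**Figure D1:**
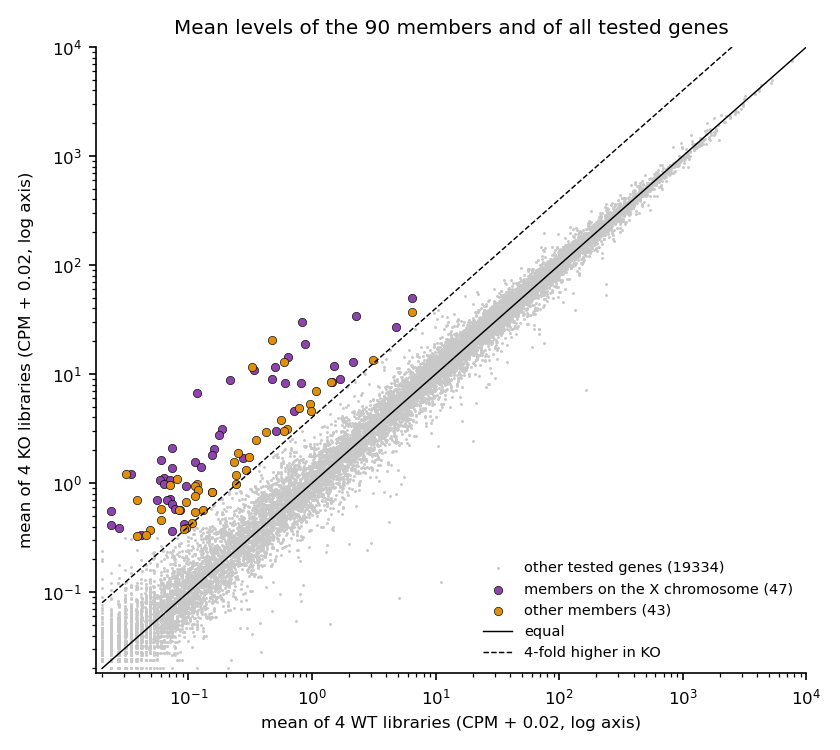
Mean CPM of the 4 WT libraries (x axis) against the mean CPM of the 4 KO libraries (y axis), both with 0.02 added and on log axes; each dot is a gene. Genes that met the rule are coloured by chromosome (47 on X, 43 others), the other 19334 tested genes are grey, the solid line marks equal levels and the dashed line a 4-fold difference; the coloured dots lie on or above the dashed line because they were selected to do so.

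At the limits of the rule the genes formed no gap. Just inside the ratio limit were Cyp4v3 at 4.01, Ccdc152 at 4.05 and Stab2 at 4.07, and just outside were Rspo4 at 3.94, Brdt at 3.94 and Hal at 3.93. Just above the CPM floor were Mat1a at 0.311, Trp63 at 0.315 and Ctag2 at 0.317 CPM, and just below it were Rhox7 at 0.293, Magea3 at 0.292 and Mgl2 at 0.290 CPM.

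The Xlr genes (X-linked lymphocyte regulated) were the largest family. They encode small nuclear proteins related to SYCP3, a protein of the meiotic chromosome axis, and Xlr3b, Xlr4b and Xlr4c are known to be imprinted in the mouse. All 10 Xlr symbols in the files met the rule. Their summed level was 6.35 ± 0.274 CPM in WT and 125 ± 2.56 CPM in KO libraries (SD, n = 4), a ratio of 19.6. By subfamily the ratio of summed levels was 15.6 for Xlr3, 25.3 for Xlr5 and 33.9 for Xlr4.

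Counts of Xlr3a were 150 and 151 in WT untreated, 163 and 156 in WT H2O2, 2638 and 2098 in KO untreated and 2098 and 2077 in KO H2O2 libraries. Those of Xlr4c were, in the same order, 9 and 4, 3 and 11, 517 and 422, and 399 and 403. The KO libraries thus stood far above the WT libraries with or without H2O2, and Xlr4c had the largest KO/WT ratio of the 90 genes at 57.2. Within the family Xlr4b followed with 19, 12, 17 and 7 WT counts against 658, 528, 561 and 538 KO counts, a ratio of 40.3. Xlr5b (32.0), Xlr4a (23.0), Xlr5a (22.6) and Xlr3b (21.2) were the next Xlr genes, then Xlr5c (16.7), Xlr3a (15.2), Xlr (13.8) and Xlr3c (10.1). The copies are similar in sequence, so reads may be split or shared between them, and the family sum is firmer than the value of any copy.

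1700013H16Rik, which the RefSeq gene table also lists as Slx2 and Xlr6, lay next to Xlr. Its WT counts were 55, 63, 46 and 61, and its KO counts 2225, 1804, 1787 and 1935, the untreated libraries first in each genotype. This amounted to 29.8 ± 1.50 CPM in KO and 0.806 ± 0.095 CPM in WT cells (SD, n = 4), a ratio of 36.1. Per kb of annotated exon its KO level of 24.3 CPM was the second highest of the 89 genes with a length, after BC002163.

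The promoter windows of Usp26, Hunk and Xlr3a are shown because these were the 3 genes with the highest KO level. The Hunk window is not typical of the autosomal members, since its ratio of observed to expected CpG dinucleotides was 0.967 and their median was 0.487. Those of Xlr3b and Xlr4a were added after the sequences had been compared. Windows are RefSeq windows of build GRCm38.p6 that run from 250 bases before to 50 bases after the annotated start, written 5′ to 3′ on the gene's strand. Capitals mark CCAATCAG, a form of the CCAAT box, in all windows but that of Hunk, where they mark CpG dinucleotides.
Usp26 (chrX:51801184-51801483, minus strand): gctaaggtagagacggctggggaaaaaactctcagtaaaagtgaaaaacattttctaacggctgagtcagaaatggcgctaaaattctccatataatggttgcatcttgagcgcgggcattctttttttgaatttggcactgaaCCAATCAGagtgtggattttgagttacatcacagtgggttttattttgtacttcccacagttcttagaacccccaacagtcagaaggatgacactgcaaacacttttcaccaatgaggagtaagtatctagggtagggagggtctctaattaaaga
Xlr3a (chrX:73097046-73097345, minus strand): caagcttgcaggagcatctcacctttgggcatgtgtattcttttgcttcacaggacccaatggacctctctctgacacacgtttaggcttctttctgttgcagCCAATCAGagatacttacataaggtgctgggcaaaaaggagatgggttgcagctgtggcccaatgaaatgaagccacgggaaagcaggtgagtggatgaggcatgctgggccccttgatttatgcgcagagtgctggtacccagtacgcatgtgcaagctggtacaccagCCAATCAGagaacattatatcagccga
Xlr3b (chrX:73191929-73192228, plus strand): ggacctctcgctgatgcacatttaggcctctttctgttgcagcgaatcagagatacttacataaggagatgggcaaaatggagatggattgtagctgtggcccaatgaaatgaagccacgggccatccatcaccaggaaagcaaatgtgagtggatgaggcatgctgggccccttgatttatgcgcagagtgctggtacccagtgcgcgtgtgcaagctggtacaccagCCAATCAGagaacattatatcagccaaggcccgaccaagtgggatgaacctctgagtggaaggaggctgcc
Xlr4a (chrX:73082458-73082757, minus strand): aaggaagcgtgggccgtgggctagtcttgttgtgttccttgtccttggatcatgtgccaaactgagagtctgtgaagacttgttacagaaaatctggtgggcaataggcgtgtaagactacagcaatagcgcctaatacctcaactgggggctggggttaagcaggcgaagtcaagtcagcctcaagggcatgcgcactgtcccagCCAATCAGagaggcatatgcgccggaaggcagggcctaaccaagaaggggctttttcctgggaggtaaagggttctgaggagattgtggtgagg
Hunk (chr16:90386147-90386446, plus strand): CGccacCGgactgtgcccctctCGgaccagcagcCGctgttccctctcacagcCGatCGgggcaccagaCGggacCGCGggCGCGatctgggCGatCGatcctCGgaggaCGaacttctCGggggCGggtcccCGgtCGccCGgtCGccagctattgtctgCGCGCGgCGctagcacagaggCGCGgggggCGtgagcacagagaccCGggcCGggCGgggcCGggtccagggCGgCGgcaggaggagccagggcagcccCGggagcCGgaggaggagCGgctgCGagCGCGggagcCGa

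In the Usp26 window CCAATCAG began 106 bases before the start, in Xlr4a 44 bases and in Xlr3b 21 bases before it. Xlr3a held the 8 letters at 147 bases before the start and again 23 bases after it. The longest identical stretch between the Xlr3a and Xlr3b windows was 58 bases, so these are copies and not separate instances. Usp26 shared no more than 10 identical bases in a row with any of the 3 Xlr windows shown. The Usp26 window held 5 CpG dinucleotides, that of Xlr3a 5, that of Xlr3b 7 and that of Xlr4a 8. The Hunk window held 41.

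**Figure D2:**
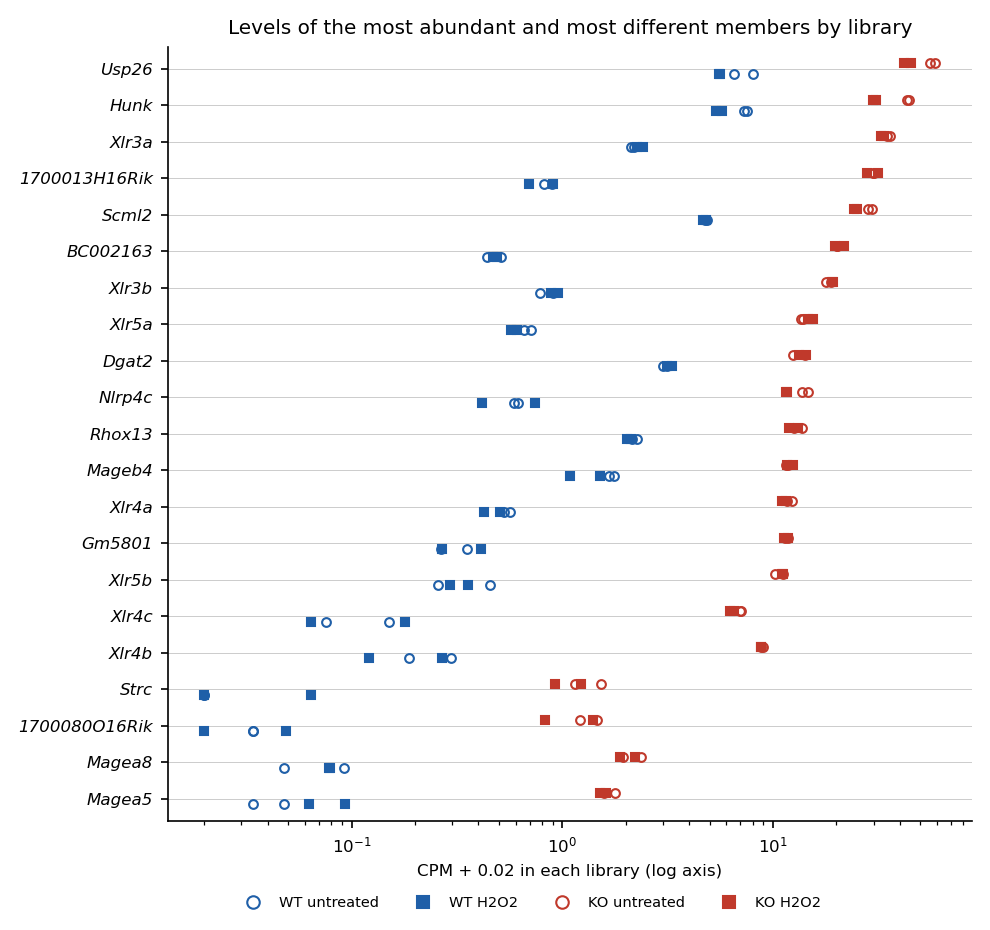
CPM plus 0.02 in each of the 8 libraries (log x axis) for the 15 genes with the highest KO mean and the further genes among the 10 largest KO/WT ratios. Blue marks WT and red KO libraries, open circles untreated and filled squares H2O2-treated ones; in every gene the red points lie right of the blue ones, as the rule requires, and in Usp26 and Hunk the treated libraries of each genotype lie left of the untreated ones.

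The Magea genes, X-linked cancer-testis antigens that partner with E3 ubiquitin ligases, were 6 of 7 tested symbols. Summed over all 7, the level was 0.262 ± 0.0372 CPM in WT and 7.01 ± 0.773 CPM in KO libraries (SD, n = 4). The remaining symbol, Magea3, had 0, 1, 1 and 1 WT counts and 30, 19, 11 and 17 KO counts, and missed the rule only through the CPM floor. Magea8 was the most abundant, with 5, 2, 4 and 4 counts in WT and 142, 141, 120 and 135 in KO libraries. Magea5 had 1, 2, 5 and 3 counts against 130, 94, 102 and 92. These genes were near the floor of detection in WT cells, and near-identical copies may share their reads. In the related Mageb group 1 of 6 tested symbols was selected. Mageb4 had 120, 118, 101 and 74 WT counts and 846, 708, 799 and 721 KO counts, a ratio of 7.89, whereas the more abundant Mageb16 stood at 35.5 CPM in WT and 40.6 CPM in KO cells.

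The Rhox genes, reproductive homeobox genes clustered on the X chromosome, contributed 3 of 27 tested symbols, Rhox13, Rhox10 and Rhox2a. Rhox13 had 146, 162, 137 and 146 counts in WT and 928, 829, 764 and 807 in KO libraries, a ratio of 6.00. Rhox5, the best known gene of the cluster in mESCs, was not selected. It rose from 17.4 to 51.6 CPM, a log2 fold change of 1.53 ± 0.04 (SE) with an edgeR FDR of 2.2e-22. Rhox9, in the same cluster, was at 6.75 CPM in WT and 5.20 CPM in KO cells, a log2 fold change of -0.42 ± 0.06 (SE) at an edgeR FDR of 2.2e-06. Neighbouring genes of one cluster thus went both ways.

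Other X-linked families were the ferritin-like Fthl17 and Gm14458, which were both selected and summed to 0.079 ± 0.0251 CPM in WT and 1.78 ± 0.146 CPM in KO cells (SD, n = 4). Of 10 tested Prame symbols, a family of leucine-rich repeat proteins of germ cells and tumours, Prame and Pramel3 were selected, both on the X chromosome. The symbols alone do not tell whether the other Prame genes lie on that chromosome. Pramel3 had 4, 5, 2 and 4 WT and 107, 112, 72 and 64 KO counts. In all, 26 of the 90 genes were assigned to X-linked germline families, with KO/WT ratios between 5.86 and 57.2 and a median of 17.2. The classes were assigned after the members had been seen.

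A list of symbols from X-linked germline families was compiled for this purpose, with earlier results of these data known. Of its 58 tested symbols 21 were selected (36.2%), beside 0.463% of all tested genes. This share is therefore a description and not an independent test. The prefixes also caught Slx4 and Ssx2ip, which are no members of these families. Of the 37 list symbols that were not selected, 10 were called higher and 0 lower in KO cells at an FDR below 0.05 and at least 2-fold in edgeR, beside 3.09% of all tested genes called higher and 1.98% called lower. These were Rhox1, Rhox2b, Rhox2d, Rhox2f, Rhox2g, Rhox2h, Rhox5, Rhox7, Mageb18 and Magea3. At an unadjusted p below 0.05 without a fold limit 11 were higher and 4 lower, limma-voom called 11 higher and DESeq2 8, and neither called any lower. The list minus its selected genes was trimmed on the same comparison, so the count is a description.

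Outside these families 14 genes were assigned to the germline, of which 7 lay on the X chromosome. The class may be incomplete, since Ctag2 was placed in it but Gm6880, which RefSeq lists as Ctag2l1, was not. Usp26, a testis-expressed deubiquitinase, had the highest KO level of all. Its WT counts were 556 and 471 before and 378 and 383 after H2O2, and its KO counts 4352 and 3345 before and 2922 and 2576 after it. The level was 6.41 ± 1.18 CPM in WT and 50.4 ± 8.13 CPM in KO cells (SD, n = 4), a ratio of 7.83, and part of the SD came from the lower values after H2O2 in both genotypes. Scml2, a germline protein related to Polycomb factors, stood at 4.75 ± 0.096 against 26.8 ± 2.45 CPM, a ratio of 5.61. Nlrp4c, of an oocyte-expressed branch of the NLR family, had 41, 41, 27 and 50 WT counts and 1009, 884, 743 and 720 KO counts, a ratio of 21.9. Its more abundant relative Nlrp4f was at 91.2 CPM in WT and 79.8 CPM in KO cells, and Nlrp4a and Nlrp4g were lower in KO cells too. Nlrp4e was higher in KO cells, with 1, 0, 2 and 3 WT counts and 14, 10, 8 and 14 KO counts. Nxf2, a testis-expressed mRNA export factor, was at 1.66 ± 0.196 and 8.98 ± 0.726 CPM, and the general export factor Nxf1 at 177 and 175 CPM. Nxf3 and Nxf7 were not selected but were also higher in KO cells. Nxf3 stood at 11.3 CPM in WT and 21.7 CPM in KO cells, and Nxf7 at 1.76 and 3.65 CPM.

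A further list held 29 tested germline genes known to be silenced by promoter methylation, such as the germ cell RNA-binding gene Dazl. Asz1, Slc25a31 and Tuba3b were selected (10.3%), again a description, since this list too was chosen with earlier results known. Slc25a31, the germ cell ADP/ATP carrier of mitochondria, had 95, 84, 106 and 108 counts in WT and 610, 514, 556 and 534 in KO libraries, a ratio of 5.96. Asz1, of the piRNA pathway that guards the germline against transposons, had 39, 57, 64 and 52 against 348, 318, 307 and 288, a ratio of 6.24. Tuba3b, a testis alpha-tubulin, had 64, 76, 59 and 63 against 401, 348, 353 and 282, and its near-identical copy Tuba3a was at 33.3 CPM in WT and 27.3 CPM in KO cells. Of the 26 other genes of the list 7 were called higher and 0 lower with edgeR, limma-voom and DESeq2 alike, beside the shares of all tested genes given above. At an unadjusted p below 0.05 without a fold limit 19 were higher and 6 lower. Brdt was the gene just under the ratio limit, and Dazl was at 14.9 CPM in WT and 30.9 CPM in KO cells. Ctcfl, the germline relative of the insulator protein CTCF, Gtsf1 and Tex19.2 were further selected genes, at KO means of 0.548, 2.99 and 4.57 CPM. The paralogue Tex19.1 was abundant, at 216 CPM in WT and 183 CPM in KO cells.

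The other genes were mostly autosomal. Hunk, a kinase of the AMPK-related group, had 502, 541, 387 and 372 counts in WT and 3203, 2681, 1915 and 1890 in KO libraries. Its level was 6.45 ± 1.09 CPM in WT and 37.0 ± 7.93 CPM in KO cells (SD, n = 4), a ratio of 5.73. Dgat2, which catalyses the last step of triglyceride synthesis, had 215, 214, 212 and 228 against 918, 857, 856 and 888 counts, a ratio of 4.33, and was one of 6 metabolic enzymes. Strc, which encodes stereocilin of the hair bundle of the inner ear, had 0, 0, 3 and 0 WT counts and 111, 68, 58 and 74 KO counts.

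2 pseudogenes stood out by level. BC002163, a processed pseudogene by its GENCODE M21 type, had 34, 30, 32 and 31 counts in WT and 1480, 1220, 1262 and 1339 in KO libraries, a ratio of 42.9. Per kb of exon it was the highest of the selected genes, with 63.9 CPM in KO cells. Gm5801, a transcribed pseudogene, had 17, 24, 17 and 27 against 837, 713, 725 and 726 counts, a ratio of 35.6. Reads of a processed copy can come from its parent gene, and the counts do not separate the 2 sources. By RefSeq and GENCODE type, 80 of the selected genes were protein-coding (89.9%, beside 91.2% of tested genes), 5 were lncRNAs (5.62%, beside 5.96%), and 3 were transcribed pseudogenes and 1 a processed one. The strand setting of the counting is not given in the sources used here, so reads of a gene overlapping another on the opposite strand cannot be separated.

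Developmental transcription factors formed a small group of 5, Pax7, Dmbx1, Prdm12, Myt1l and Trp63, with KO/WT ratios between 4.75 and 7.43. They stayed at low KO means between 0.315 and 3.12 CPM. Pax7 is a factor of muscle stem cells and neural crest, Dmbx1 of the developing midbrain, Prdm12 of pain-sensing neurons, Myt1l of neurons and Trp63 of stratified epithelium. Beside them, of 20 tested genes of neural progenitors and neurons 1 was called higher (Pax6) and 1 lower (Sox1). The summed level of the list was 592 to 683 CPM in WT and 602 to 637 CPM in KO libraries. Within this sum Stmn2 alone stood at 396 CPM in WT and 332 CPM in KO cells, so the sum says little about the other genes. Among 17 tested trophoblast genes 1 was called higher and 4 lower, among 20 endoderm genes 0 and 2 (3 and 9 at an unadjusted p below 0.05, and 0 and 2 also with limma-voom and DESeq2), among 20 primed epiblast and mesoderm genes 1 and 2, and among 19 fibroblast genes 3 and 2, beside the 3.09% and 1.98% of all tested genes. Without a fold limit, the median log2 fold change was 0.37 in the neural list and 0.47 in the fibroblast list. It was -0.48 in the trophoblast, -0.27 in the endoderm and -0.01 in the primed epiblast and mesoderm list, beside -0.0005 for all tested genes. The fibroblast median was the value of Col3a1, which had 1, 0, 0 and 1 WT counts and 1, 1, 1 and 0 KO counts. With an SE of 1.46 for that gene, this median rests on few reads. None of the 90 genes was in any of these marker lists, and none was in the lists of HOX genes, clustered protocadherins, importin beta genes, ion channels or antigen presentation genes. The list of imprinted genes and that of zinc finger genes, taken by the prefixes Zfp and Zscan, held none of the 90 either, but they are not complete, since the imprinted Xlr genes and the zinc finger genes Ctcfl, Prdm12 and Myt1l were selected and stood in neither. Of 353 tested solute carriers 1 was selected, Slc25a31 again. Whether a small fraction of differentiated cells contributed to a gene's level was not tested. In these bulk libraries, more cells with a transcript and more RNA per cell cannot be told apart.

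The chromosomal position of the genes was not part of the rule. Positions were found for 89 of the 90 genes, all but LOC100503280. The X chromosome carried 47 of them, 5.88% of its 799 tested genes, and the autosomes carried 42, 0.227% of 18505. The opposite rule, with the genotypes exchanged, gave 30 genes, of which 1 was on the X chromosome and 29 were autosomal. KO/WT ratios of X-linked members had a median of 13.8, and those of autosomal members a median of 6.69. Among genes of at least 1 CPM that were not selected, the median log2 KO/WT ratio was 0.12 for 459 X-linked genes and 0.03 for 11645 autosomal genes. It was 0.32 for 963 genes of chromosome 2, on which Strc, Prdm12, Ctcfl, Sqrdl and Wfdc15a lay, and whether this shift contributed to their ratios was not tested. Xist was lower in all KO than in all WT libraries, and its part in the levels of X-linked members was not tested either.

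**Figure D3:**
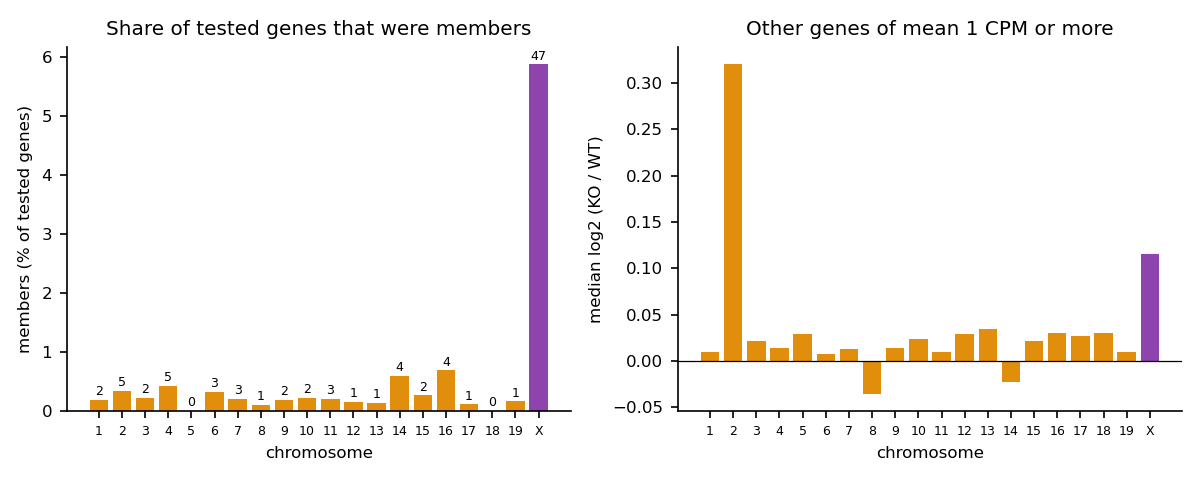
Left, percentage of the tested genes of each chromosome that met the rule, with their number above each bar; right, median log2 ratio of KO to WT mean CPM of the other genes with a mean of at least 1 CPM. The X chromosome (purple) stands at 5.88% on the left while its other genes have a median of 0.12 on the right, and chromosome 2 has the highest median at 0.32.

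Many of the X-linked members were neighbours. Taking genes within 500 kb of each other, 41 of the 89 fell into 14 runs, and 35 of the 47 X-linked genes fell into 11 runs. The densest run held 9 Xlr genes within 0.22 Mb (chrX:73074343-73293863, GRCm38). It was interrupted by 2 other tested genes, of which F8a had a KO/WT ratio of 1.66. Another run held Magea6, Magea8, Magea2 and Magea5 (chrX:154923895-155063151), and another held Nxf2, Pramel3, Prame, 1700008I05Rik and Tmsb15a (chrX:134944526-135725261), with Nxf7 between them at a ratio of 2.06. Usp26 and 1700080O16Rik lay in a run of their own (chrX:51752667-51973502). 1700080O16Rik had 1, 1, 2 and 0 WT counts and 106, 72, 52 and 85 KO counts, a ratio of 35.7. Some of the runs are tandem copies of a gene, which share their origin and possibly reads, so the number of genes overstates the number of separate loci.

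The promoter windows of the genes were compared with those of all tested genes. A window was found for 74 of the 90. The ratio of observed to expected CpG dinucleotides, which is low where methylated CpGs have been lost in evolution, had a median of 0.426 in these windows and 0.677 in 14908 windows of all tested genes. In X-linked members the median was 0.400, in the other tested X-linked genes 0.523 (612 windows) and in autosomal members 0.487. A ratio of 0.6 or more, a usual limit for a CpG island, was reached by 2 of 45 X-linked members (4.44%), 11 of 29 autosomal members (37.9%), 42.0% of other X-linked genes and 57.5% of all tested genes. The genes were thus poorer in CpG than the tested genes at large, the X-linked ones more so than other genes of that chromosome. Since copies within a family share sequence, windows are not independent.

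**Figure D4:**
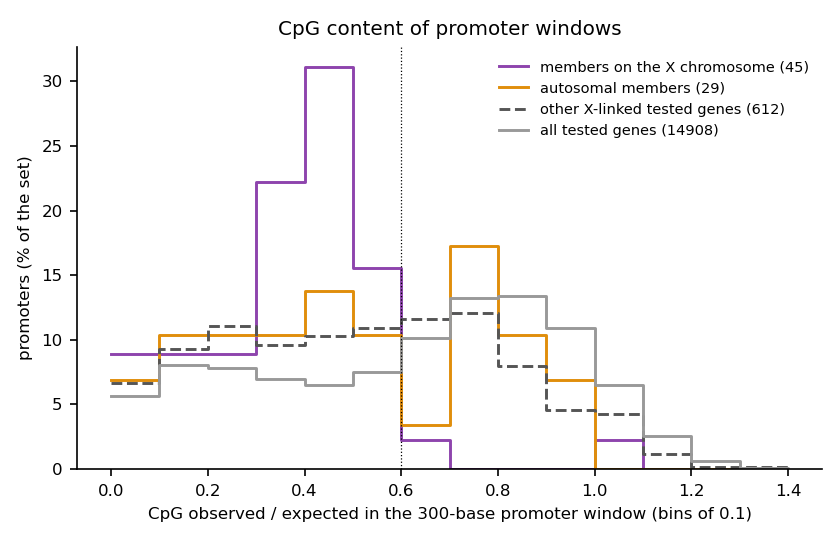
Share of promoter windows (y axis, percent of each set) by the ratio of observed to expected CpG dinucleotides in bins of 0.1 (x axis) for X-linked members (45), autosomal members (29), other tested X-linked genes (612) and all tested genes (14908). The dotted line marks 0.6; 2 of the 45 X-linked members lie at or above it, beside 57.5% of all tested genes.

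Short motifs were counted on both strands of the windows. The GC box GGGCGG, the letters bound by SP1-like factors, was in 24.3% of the members' windows and 54.9% of all. TCCCGC, the core of E2F sites, was in 2.22% of X-linked and 34.5% of autosomal members' windows and 30.3% of all. The E-box CACGTG was in 10.8% and 9.03%, GCGTG in 41.9% and 44.7%, and TATAAA in 8.11% and 9.61%. CCAAT was in 60.8% of the members' windows, in 71.1% of those of X-linked members, in 46.1% of those of other X-linked genes and in 38.6% of all. The longer form CCAATCAG, which contains CCAAT and was looked for after the windows had been read, was in 15 of 74 members' windows (20.3%) and 5.55% of all tested genes' windows. It was in 13 of 45 windows of X-linked members (28.9%), beside 4.41% for other X-linked genes. Of these 13, 7 belonged to the 10 Xlr windows and 6 to the 35 others (17.1%), Usp26, Prame, Cypt3, Tmsb15a, Gm773 and 3830403N18Rik. The split was by symbol only. The 35 others held 1700013H16Rik, also listed as Xlr6, whose window lacked the longer form. They also held 3830403N18Rik, which was assigned to the X-linked germline families, so the 6 may not be separate instances. A match describes the letters of a window and not a bound site.

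The response of the genes to H2O2 was first tested in KO cells. At an FDR below 0.05 and at least a 2-fold change, 2 of the 90 genes were called in edgeR's quasi-likelihood test of treated against untreated KO libraries (2.22%), a share near the 2.89% of all tested genes. At the FDR limit alone 15 were called (16.7%), 12 lower and 3 higher, beside 29.4% of all tested genes. Since most of the genes were low, the 65 with a KO mean under 5 CPM were also set beside the tested genes between 0.3 and 5 CPM. There 10 members (15.4%) were called at the FDR limit and 30% of the genes of that range. The median log2 fold change of the 90 genes was -0.08 and that of all tested genes 0.00. Both treated KO libraries lay below both untreated ones for 34 genes (37.8%) and above them for 13 (14.4%), beside 34.7% and 25.5% of all tested genes, and 43% and 29% of those with a KO mean of at least 0.3 CPM.

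Pax7 and Magea10 were the 2 genes called. Pax7 counts in KO cells were 90 and 66 before and 33 and 24 after treatment, and those in WT cells 8, 11, 11 and 8. Its log2 fold change in KO cells was -1.33 ± 0.21 (SE) at an edgeR FDR of 1.9e-05. Magea10 counts in KO cells were 64 and 39 before and 25 and 21 after treatment, a log2 fold change of -1.03 ± 0.28 (SE) at an edgeR FDR of 0.0050. Treated and untreated libraries did not overlap in either gene, but the call for Magea10 was lost without the first untreated library (FDR 0.178) or the second treated library (FDR 0.0590) and with DESeq2 (FDR 0.112).

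Smaller shifts passed the FDR limit in 13 further genes, and 10 of all 15 had a KO mean under 5 CPM. Hunk fell by 0.51 ± 0.05 on the log2 scale in KO cells (SE; edgeR FDR 6.0e-09) and Usp26 fell by 0.36 ± 0.06 (edgeR FDR 1.9e-05). The same genes fell in WT cells, Hunk by 0.46 ± 0.07 (edgeR FDR 2.5e-05) and Usp26 by 0.43 ± 0.09 (edgeR FDR 0.00053). Scml2 fell by 0.19 and Nlrp4c by 0.25 in KO cells. Prdm12, Col8a2, Pramel3, Magea4, 4933427D06Rik and Rhox10 were the other genes that were lower, and Nxf2, Dmbx1 and 1700019B21Rik were higher, by 0.23, 0.48 and 0.61. The names without a place in the rule for named genes, Prdm12, Col8a2, Pramel3, 4933427D06Rik and Nxf2, were chosen after their values were seen. With a library left out, the calls of Scml2 (2 of 8 libraries), Nlrp4c (4), Magea4 (3), Rhox10 (6) and 1700019B21Rik (1) were lost at FDRs between 0.0517 and 0.231. None of the 10 Xlr genes passed the FDR limit in KO cells with edgeR, limma-voom or DESeq2 on all libraries, 2 had an unadjusted p below 0.05 in edgeR, and their log2 fold changes lay between -0.10 and 0.25. In edgeR Xlr5a passed it as higher without either untreated WT library (FDR 0.0410 and 0.0409), with filterByExpr (0.0398) and with the replicate block (0.0423). Without the first treated KO library Xlr5a (FDR 0.0477), Xlr (0.0309) and Xlr5c (0.0398) passed as higher, and without the second treated KO library 1700080O16Rik passed as lower (FDR 0.0476).

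**Figure D5:**
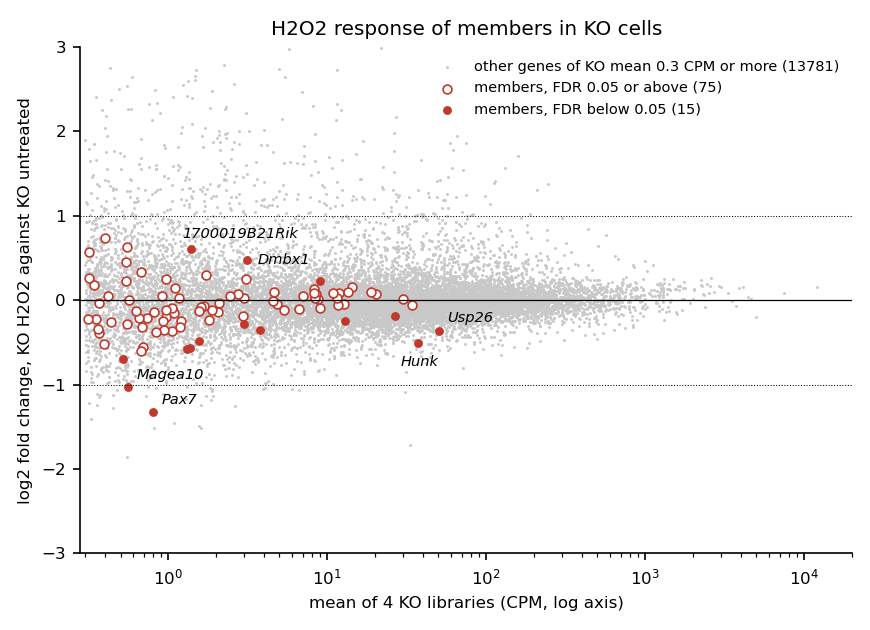
Log2 fold change of treated against untreated KO libraries (y axis) by KO mean CPM (log x axis) for the 90 genes and for 13781 other genes with a KO mean of at least 0.3 CPM (grey; 8 of these lie beyond the axis). Filled red circles mark the 15 genes with an edgeR FDR below 0.05, open ones the other 75, and the dotted lines 2-fold changes; Pax7 and Magea10 lie below the lower one.

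In WT cells 1 of the 90 genes was called at both limits (1.11%), beside 2.9% of all tested genes, and 5 at the FDR limit alone (5.56%), beside 25.3%. The low WT counts limit what could be called here. 1700019B21Rik, an X-linked lncRNA, was the gene called, with 11 and 12 counts before and 3 and 4 after treatment, a log2 fold change of -1.68 ± 0.52 (SE) at an edgeR FDR of 0.018. The FDR was 0.0590 without the second untreated WT library, 0.129 without the first treated one, 0.0667 without the second treated one, and 0.0510 with DESeq2. In KO cells its counts were 89 and 61 without and 114 and 96 with H2O2, so it stood higher after treatment there. Besides Hunk and Usp26, Mageb4 fell by 0.44 ± 0.15 in WT cells (edgeR FDR 0.026), and Vipr1, a receptor for vasoactive intestinal peptide, rose by 0.89 ± 0.31 (edgeR FDR 0.034).

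The difference between the H2O2 responses of the genotypes was tested as an interaction. With edgeR 2 of the 90 genes were called (2.22%), beside 2.71% of all tested genes. 1700019B21Rik had an interaction of 2.29 ± 0.54 (SE) on the log2 scale at an FDR of 0.017. Dmbx1 counts went from 49 and 50 to 31 and 40 in WT cells, and from 193 and 161 to 236 and 217 in KO cells. Its interaction was 0.96 ± 0.23 at an edgeR FDR of 0.018. Neither call held in every fit. The FDR of 1700019B21Rik lay between 0.0827 and 0.141 without either treated WT or either untreated KO library, and that of Dmbx1 between 0.0579 and 0.185 without the first treated WT, either untreated KO or the first treated KO library. DESeq2 gave Dmbx1 an FDR of 0.128 and 1700019B21Rik none, and limma-voom gave Dmbx1 0.0758. Pax7, called in KO cells and not in WT cells, had an interaction of -1.33 ± 0.51 with an edgeR FDR of 0.182, so a difference between its responses was not shown.

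The agreement of replicates was compared with that of other genes. Among genes with at least 10 counts in a replicate pair, counts differed beyond a two-sided exact binomial p of 0.05 for 2 of 62 in untreated WT, 2 of 59 in treated WT, 8 of 90 in untreated KO and 10 of 90 in treated KO cells. The shares were 3.23%, 3.39%, 8.89% and 11.1%, and among other genes of the same count ranges they were 5.10%, 3.75%, 8.39% and 8.05%.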

How the data were processed

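RNA-seq was performed on 8 libraries of mESCs, and groups and replicate numbers were taken from the labels. Per the labels and the submitters' processing notes, the authors used bcl2fastq, STAR 2.3.1, HTSeq and limma with build mm10, and deposited raw counts per gene symbol for each library. The gene annotation and the strand setting are not given in the sources used here. CPM values, counts scaled to the library total and given with 3 decimals, were deposited beside them. The depth was between 60397877 and 73789079 counts per library, and low WT levels are therefore imprecise.

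The 90 genes were chosen on the deposited CPM values, and the members and all gene lists were chosen with earlier results of these data known. The 19424 genes with any count were fitted in R 4.3.3 with edgeR 4.0.16 in 1 model of all 8 libraries, with TMM factors, 1 coefficient per group and the quasi-likelihood test. FDR is the Benjamini-Hochberg adjusted p over these genes. Calls needed an FDR below 0.05 together with a 2-fold change, or the FDR limit alone for the interaction. SEs were computed from the fold change and its F statistic. For a single gene with 2 libraries on each side, the smallest p of an exact permutation test is 0.333, and p-values measure only the spread between these libraries, which may be technical.

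Genes were named by a rule, the 15 with the highest KO mean, the 10 with the largest KO/WT ratio, those called after H2O2 or in the interaction, those at the rule's limits, members of the gene lists and Ipo13. Relatives and neighbours of these genes were chosen after their values were seen. Alternatives were limma-voom (limma 3.58.1), DESeq2 1.42.0, relative log expression factors, no factors, filterByExpr, a minimum of 10 counts, a replicate block, each library left out, and other limits of the rule. Same-numbered replicates deviated from their group means with correlations between -0.09 and 0.64, and the numbers were not taken as pairs. Positions, types and promoter windows came from RefSeq GRCm38.p6, in which 79 of the 90 genes matched by symbol and 9 by an older symbol, and 1 was found only in GENCODE M21, which also gave exon lengths.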

Additional observations from a re-analysis of the deposited data

Results flagged for a closer look

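The interaction of genotype and H2O2 passed the FDR limit in edgeR for 2 of the 90 genes. For Dmbx1 the log2 fold change after H2O2 was -0.48 in WT and 0.48 in KO cells, a difference of 0.96. For the lncRNA 1700019B21Rik it was -1.68 in WT and 0.61 in KO cells, a difference of 2.29, and its treated WT libraries held 3 and 4 counts.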

How the results depend on the processing

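The number of selected genes was 90 under the rule, 147 with a ratio limit of 3, 45 with a limit of 8, 55 with a CPM floor of 1, and between 87 and 98 when any 1 library was left out. With 0.1 CPM added in place of 0.02 CPM, 71 genes were left. The untreated libraries alone gave 109 genes, 83 of them among the 90, and the treated libraries alone gave 89, of which 84 were among them. All 87 genes found with TMM-scaled CPM, and all 87 with relative log expression factors, were among the 90. The genes called after H2O2 in KO cells numbered 2 with edgeR, 1 with DESeq2, 15 without a fold limit and between 1 and 2 with a library left out. In WT cells they numbered 1, with DESeq2 0 (6 at an unadjusted p below 0.05), without a fold limit 5, and between 0 and 2 with a library left out. In the interaction they numbered 2 with edgeR, 1 with limma-voom, 0 with DESeq2 (4 at an unadjusted p below 0.05, and no FDR for 54 of the 90), 1 with a 2-fold limit, and between 0 and 2 with a library left out. The replicate block raised the interaction to 4 genes, adding Nxf2 (0.49, FDR 0.032) and Mageb4 (0.53, FDR 0.025), and left the KO count at 2 and the WT count at 1; the labels do not say that the numbers pair the libraries. The interaction calls of Dmbx1 and 1700019B21Rik were both lost without either untreated KO library or the first treated WT library, that of 1700019B21Rik also without the second treated WT library, and that of Dmbx1 also without the first treated KO library. In these fits the lone library of a group was assumed to vary like the other groups, and the cause of the losses was not tested. Allowing up to 3 WT counts in place of 0 raised the genes without WT reads from 0 to 4. The log2 fold change of Ipo13 lay between -1.48 and -1.44 with a library left out. Of the values of single genes under the alternatives, 596 kept their side of the FDR limit, 40 no longer met it, 8 newly met it, and none of the called ones changed sign. Without the Xlr, Magea, Rhox2 and Fthl17 symbols, whose copies may share reads, 72 genes were left, a count chosen after seeing the data. Low WT counts limit the ratios of the 51 genes with fewer than 10 counts in a WT library.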

Other observations

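Genes of the 2-cell-like state, a rare state of mESC cultures that resembles the 2-cell embryo, were not among the 90. Of 18 tested genes of this list 7 were called higher in KO cells with edgeR at an FDR below 0.05 and at least 2-fold, Zscan4c, Zscan4e, Zfp352, Tcstv3, Usp17le, Gm8300 and Arg2, beside 3.09% of all tested genes called higher, and limma-voom and DESeq2 also called 7 higher. None was called lower by these 3 tools, and at an unadjusted p below 0.05 without a fold limit edgeR had 11 higher and 1 lower, Tdpoz1, with a log2 fold change of -0.87 ± 0.22 (SE; FDR 0.0020). The summed level of the list was between 3.81 and 4.26 CPM in WT libraries and between 6.45 and 7.93 CPM in KO libraries. Of 34 tested imprinted genes 1 was called higher, H19.

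Genes of DNA methylation and of the repression of germline genes were looked up after the 90 genes had been seen. The maintenance methyltransferase Dnmt1 was at 352 ± 10.3 CPM in WT and 376 ± 7.93 CPM in KO cells (SD, n = 4), a log2 fold change of 0.05 ± 0.03 (SE) with an edgeR FDR of 0.165. Its partner Uhrf1 differed by -0.11 ± 0.03, the de novo enzymes Dnmt3a by 0.19 ± 0.04 and Dnmt3b by 0.15 ± 0.03, and their cofactor Dnmt3l by -0.19 ± 0.03. The demethylase Tet2 was at 251 ± 37.7 CPM in WT and 180 ± 44.7 CPM in KO cells, a log2 fold change of -0.55 ± 0.04 at an edgeR FDR of 6.4e-11. Its libraries overlapped between the genotypes, at 221 to 303 CPM in WT and 133 to 230 CPM in KO cells. These SDs and ranges pool untreated and treated libraries. E2f6, whose complex represses germline genes, differed by 0.18 ± 0.04, and its partners Mga by -0.18 ± 0.04, L3mbtl2 by -0.24 ± 0.03, Pcgf6 by -0.03 ± 0.03 (edgeR FDR 0.458) and Max by 0.00 ± 0.03 (edgeR FDR 1.00). Of the histone methyltransferases Setdb1 differed by -0.17 ± 0.03, Ehmt2 by -0.28 ± 0.03 and its partner Ehmt1 by 0.18 ± 0.03. Also looked up were Dppa3 (0.22 ± 0.04), Zfp57 (-0.14 ± 0.03), Dusp9 (-0.18 ± 0.03) and Tet1 (-0.05 ± 0.05, edgeR FDR 0.390). All of these differences were below 2-fold. The edgeR FDR was below 0.05 for all of these genes but Dnmt1, Pcgf6, Max and Tet1.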
